A study of Homo sapiens with 6 samples.

Results

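The genes described here are the extracellular and receptor parts of the WNT pathway, taken by symbol from expression values of 6 PC-3 tumors. They are the WNT ligands, the frizzled receptors, the co-receptors LRP5 and LRP6, the secreted inhibitors DKK1 to DKK4, SFRP1, SFRP2, SFRP4, SFRP5 and FRZB, and the genes AXIN2, LGR5, RNF43 and ZNRF3. The unit is FPKM, the number of sequenced fragments divided by transcript length in kilobases and by the size of the library. The symbols matched 44 of the 24000 gene entries, and 23 of the 44 passed the filter for testing, a mean of at least 0.5 FPKM over the tumors. PC-3 cells come from a human prostate cancer and grow without androgens. Tumors grew in nude mice given vehicle (n = 3) or WCE (n = 3), an oral standardized extract of the herb Wedelia chinensis, and the labels of all 6 tumors give a treatment of 10 weeks. The study asked which genes differ between WCE-treated and vehicle-treated tumors. The labels give no dose and no age of the mice, and they do not say what the vehicle was. An age and a dose are given in the methods for the animal experiments in general, without naming these tumors. In the study's results, the first growth experiment with PC-3 tumors had a treatment shorter than 10 weeks. According to the methods, in vivo experiments used PC-3 cells with a luciferase gene, placed in the prostate of male athymic mice. Such hosts lack mature T cells but keep myeloid cells, fibroblasts and vessels, whose reads can reach human genes in a xenograft.

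WNT proteins are secreted, lipid-modified ligands that bind frizzled receptors. Together with LRP5 or LRP6 a frizzled receptor stabilizes β-catenin, which acts with TCF/LEF factors on target genes, and other branches act without β-catenin on cell shape and movement. DKK proteins block LRP5 and LRP6, SFRP proteins and FRZB bind WNT ligands, and RNF43 and ZNRF3 remove frizzled receptors from the cell surface. In prostate cancer DKK1 is known for its link to bone lesions, and PC-3 cells are known to secrete it.

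The labeled cell type fitted its markers in that KRT8, KRT18, KRT19, EPCAM, VIM and CD44 were each above 100 FPKM in every tumor, and KLK2 and KLK3, genes driven by the androgen receptor, were listed at 0. Depth is known only relative to vehicle replicate 3, from the steps in which low values rise, and was 64.8% to 85.2% of it in 4 tumors and 25.0% in WCE replicate 1. The libraries of vehicle replicate 3 and WCE replicate 1 were nearly identical although they carry different labels. The labels do not say whether 1 library was deposited under both, in which case the values of 3 against 3 would rest on 5 distinct tumors, with 1 of them in the wrong group. Over 1915 entries with a mean of at least 50 FPKM the median absolute difference between them was 0.028 on the log2(FPKM + 1) scale, against 0.095 to 0.25 in the other 14 pairs of tumors. Over the 23 tested WNT pathway genes it was 0.064, against 0.13 to 0.38. No entry was above 0 in WCE replicate 1 and at 0 in vehicle replicate 3. Results are therefore given with all 6 tumors and with these libraries left out. Nothing in the labels says whether tumors of a group were separate experiments, so p-values set group differences against the spread between these tumors only. With all 6 they also take the libraries as separate tumors, which the nearly identical pair leaves in doubt. In bulk tumors, fewer cells of a type and less RNA per cell cannot be told apart.

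None of the 23 genes differed between groups beyond the spread between tumors when all 6 were compared. The 4 largest differences on the log2 scale were lower WNT9A, DKK1 and WNT7A and higher WNT5A in WCE-treated tumors, with mean levels 0.603, 0.726, 0.805 and 1.36 times those in vehicle-treated tumors. With limma on log2(FPKM + 1) and Benjamini-Hochberg adjustment, 0 of the 23 had an adjusted p under 0.05 and 0 an unadjusted p under 0.05. Over all 13287 entries tested, 1 entry (0.00753%) passed the adjusted and 944 (7.1%) the unadjusted threshold (3.78% higher and 3.33% lower with WCE). The lowest adjusted p among the 23 genes was 0.623. Of the 23 genes, the direction was up in 8 and down in 15, with a median log2 fold change of −0.013, against −0.0063 over all entries tested. Groups that did not overlap were found for ZNRF3 and FZD5, both lower with WCE, or 2 of 23 genes against 12.8% of all entries tested (6.37% higher and 6.4% lower with WCE).

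Without the nearly identical libraries, a comparison of 2 tumors with 2, limma gave an unadjusted p under 0.05 for 5 of the 23 genes. FZD4 was higher in WCE-treated tumors, and DKK1, WNT7A, FZD6 and FZD5 were lower. The share of all entries past the same threshold was 18.4% in this comparison (8.84% higher and 9.59% lower), so that a count of 5 of 23 stands close to the background. Groups did not overlap in 14 of the 23 genes, against 53.5% of all entries (25.7% higher and 27.8% lower). No gene of the 23 passed the adjusted threshold here, which 0.0376% of all entries did, and the lowest adjusted p was 0.173, for WNT7A. With WCE replicate 1 alone left out, 8 of the 23 genes had an unadjusted p under 0.05, against 15.3% of all entries. With vehicle replicate 3 alone left out it was 1 gene, DKK1, against 13.3% of all entries. With all 6 tumors and limma array weights it was 7 of 23 genes, against 24.1% of all entries.

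**Figure D1:**
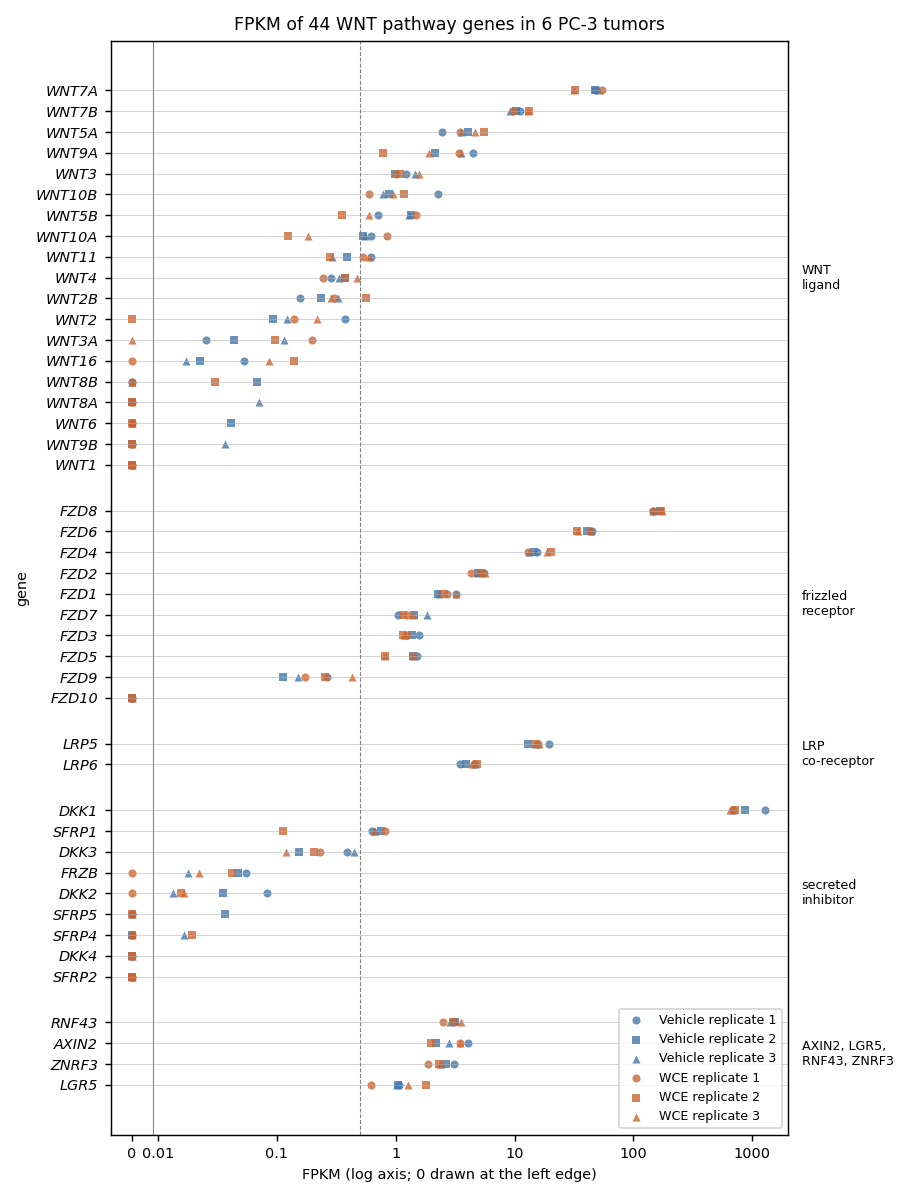
FPKM of the 44 genes (log axis, values of 0 at the left edge) in the 3 vehicle-treated tumors (blue) and the 3 WCE-treated tumors (orange), grouped by role, with marker shape for the replicate. The dashed line marks 0.5 FPKM, the mean needed for testing. DKK1 lies far to the right of all other genes, and 14 genes have a mean under 0.1 FPKM.

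FPKM values are scaled to transcript length, so that levels can be compared between genes. Receptors of the frizzled family were broadly listed, with 9 of 10 above 0 in every tumor, whereas 11 of 19 WNT ligands and 3 of 9 secreted inhibitors were above 0 in every tumor. A mean of at least 10 FPKM was reached by DKK1, FZD8, WNT7A, FZD6, FZD4, LRP5 and WNT7B. WNT1, FZD10, SFRP2 and DKK4 were listed at 0 in all 6 tumors.

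DKK1, which binds LRP5 and LRP6 and keeps them from WNT ligands, was the most abundant gene of the set. It is listed at chr10:54074041-54077417, and its mean of 818 FPKM ranked 115 among the 24000 entries. DKK1 measured 1273, 876 and 695 FPKM in vehicle replicates 1 to 3 and 693, 720 and 652 FPKM in WCE replicates 1 to 3. The vehicle-treated tumors spread widely, the lowest of them lay within the range of the WCE-treated tumors, and the groups overlapped. The means were 948 ± 296 and 688 ± 34.5 FPKM (SD, n = 3 each). The log2 fold change, with its standard error (SE), was −0.42 (SE 0.21, limma unadjusted p = 0.0831, adjusted p = 0.623). With 2 tumors against 2 it was −0.62 (SE 0.21, limma unadjusted p = 0.0296, adjusted p = 0.229). Vehicle replicate 1 weighs heavily on this difference, since without it the log2 fold change was −0.18. DKK1 made up at least 99.8% of the summed FPKM of the secreted inhibitors in each tumor.

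The other inhibitors were low or absent. SFRP1, which binds WNT ligands directly, was the only other inhibitor that passed the filter. It measured 0.626, 0.749 and 0.673 FPKM under vehicle and 0.811, 0.113 and 0.653 FPKM under WCE, with WCE replicate 2 below all others. DKK3, a relative of the DKK inhibitors, had means of 0.328 ± 0.154 and 0.185 ± 0.0577 FPKM (SD, n = 3 each). FRZB, DKK2, SFRP4 and SFRP5 had means under 0.1 FPKM. SFRP2, SFRP4 and FRZB are typically made by fibroblasts. Of 9 fibroblast marker genes, 5 had a mean under 0.5 FPKM (COL1A2, DCN, POSTN, PDGFRB and THY1), and the other 4 had means of 35.7 (COL1A1), 13.4 (PDGFRA), 7.83 (COL3A1) and 1.195 FPKM (LUM).

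To show what lies upstream of genes named here, the 250 bases before the transcript start are printed for the most abundant gene, DKK1, and for WNT7A, FZD4 and FZD5, 3 of the genes with an unadjusted p under 0.05 in the comparison of 2 tumors with 2. Sequences are those of RefSeq on GRCh38.p14, read 5′ to 3′ in the direction of the gene, with the last base next to the start. The positions listed in the FPKM table do not match this build (the submitters' processing notes name hg19) and are not set beside them. Capitals mark matches on either strand to the TCF/LEF core CTTTGA, the TATA box TATAAA or the κB consensus bound by NFκB.
DKK1, chr10:52314031-52314280, plus strand: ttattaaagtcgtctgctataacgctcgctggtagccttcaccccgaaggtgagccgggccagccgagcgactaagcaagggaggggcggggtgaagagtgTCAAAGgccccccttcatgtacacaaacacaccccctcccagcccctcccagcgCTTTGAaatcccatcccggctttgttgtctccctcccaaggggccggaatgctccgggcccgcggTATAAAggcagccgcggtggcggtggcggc
WNT7A, chr3:13880072-13880321, minus strand: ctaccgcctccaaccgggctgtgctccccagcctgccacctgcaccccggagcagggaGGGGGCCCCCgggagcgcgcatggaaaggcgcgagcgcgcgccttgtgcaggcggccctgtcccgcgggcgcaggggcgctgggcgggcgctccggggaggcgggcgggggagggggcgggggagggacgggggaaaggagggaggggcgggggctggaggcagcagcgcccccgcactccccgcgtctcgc
FZD4, chr11:86955396-86955645, minus strand: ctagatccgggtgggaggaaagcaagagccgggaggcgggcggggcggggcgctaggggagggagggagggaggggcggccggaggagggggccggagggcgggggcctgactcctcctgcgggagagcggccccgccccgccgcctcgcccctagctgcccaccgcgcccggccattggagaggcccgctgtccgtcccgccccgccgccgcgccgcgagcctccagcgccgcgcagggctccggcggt
FZD5, chr2:207769907-207770156, minus strand: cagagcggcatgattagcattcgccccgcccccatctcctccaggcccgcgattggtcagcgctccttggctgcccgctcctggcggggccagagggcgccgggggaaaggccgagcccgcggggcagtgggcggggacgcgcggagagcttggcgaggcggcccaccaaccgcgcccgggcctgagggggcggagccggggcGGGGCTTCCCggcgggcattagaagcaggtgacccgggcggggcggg

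The DKK1 sequence held CTTTGA 95 to 90 bases before the start and its reverse complement TCAAAG 149 to 144 bases before it, and TATAAA 30 to 25 bases before it. DKK1 is itself known as a β-catenin target gene. WNT7A and FZD5 each held 1 match to the κB consensus, GGGGGCCCCC at 192 to 183 and GGGGCTTCCC at 47 to 38 bases before the start, and FZD4 held no match to any of the 3 motifs. No matches overlapped. Of 35114 promoters of the same length in the table, 11.2% held the TCF/LEF core, 10.7% the TATA box and 9.96% the κB consensus. Of the 44 genes 28 had an entry there, with 32 promoters in all, of which 1, 3 and 8 held these motifs. Guanine and cytosine made up 62.8% of the DKK1 sequence and 76.8% to 80.8% of the other 3, against a median of 58% over all promoters. A match says only that these letters are present.

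Among the ligands, WNT7A was the most abundant and was lower in WCE replicates 2 and 3 than in all other tumors. It is listed at chr3:13860082-13921618 and encodes a ligand that can signal with and without β-catenin. Its level was 47.3, 47.3 and 51.7 FPKM under vehicle and 54.0, 32.0 and 31.7 FPKM under WCE. WCE replicate 1 was the highest of all 6 and next to it stood vehicle replicate 3. The log2 fold change was −0.35 (SE 0.20, limma unadjusted p = 0.121) with all tumors and −0.55 (SE 0.096, limma unadjusted p = 0.0020, adjusted p = 0.173) in the comparison of 2 tumors with 2.

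WNT7B, the closest relative of WNT7A, went the other way. It measured 11.1, 10.2 and 9.16 FPKM under vehicle and 9.62, 13.1 and 12.98 FPKM under WCE, where WCE replicates 2 and 3 were above the other 4. This was a log2 fold change of 0.20 (SE 0.14, limma unadjusted p = 0.188). The ratio of WNT7A to WNT7B FPKM was 4.27, 4.62 and 5.64 in the vehicle-treated tumors and 5.61, 2.44 and 2.45 in the WCE-treated tumors, so the groups overlapped through WCE replicate 1. How the authors assigned reads shared by paralogs is not given in the sources used here.

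WNT5A, the best known ligand of the branches without β-catenin, measured 2.43, 4.05 and 3.53 FPKM in the vehicle-treated tumors. In the WCE-treated tumors it measured 3.45, 5.58 and 4.60 FPKM, of which the last 2 lay above every vehicle-treated tumor. Its log2 fold change was 0.35 with an SE of 0.20 (limma unadjusted p = 0.110), and in the comparison of 2 tumors with 2 it was 0.54 (limma unadjusted p = 0.0574). WNT5A is also made by fibroblasts, and the summed FPKM of 9 fibroblast marker genes was 53.8 to 61.3 in vehicle-treated and 45.4 to 74.5 in WCE-treated tumors. PDGFRA alone was at 32.6 and 20.7 FPKM in WCE replicates 2 and 3 and at 3.97 to 11.0 FPKM in the other tumors. COL1A1 was at 10.5 FPKM and COL3A1 at 1.81 FPKM in WCE replicate 2, where WNT5A was highest, and at 29.5 to 45.7 and 5.81 to 11.7 FPKM in the other tumors, while DCN and PDGFRB were at most at 0.161 FPKM. The part of fibroblasts in the WNT5A values was not tested. The relative of WNT5A, WNT5B, measured 0.715, 1.35 and 1.30 FPKM under vehicle and 1.48, 0.353 and 0.595 FPKM under WCE. WNT5A and WNT5B thus stood in opposite order in WCE replicates 2 and 3, WNT5A at its 2 highest and WNT5B at its 2 lowest values of the 6 tumors. WNT9A, a ligand of the β-catenin branch, had 4.42, 2.14 and 3.53 FPKM under vehicle and 3.39, 0.787 and 1.90 FPKM under WCE, again lowest in WCE replicates 2 and 3. Its log2 fold change of −0.59 had an SE of 0.34 (limma unadjusted p = 0.122), the largest of the 23 and also the least precise, and without WCE replicate 2 it was −0.25.

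WNT3 and WNT10B, ligands of the β-catenin branch, complete the 7 tested ligands, with means between 0.903 and 1.31 FPKM in each group and wide overlap. The summed FPKM of the 19 ligands was 71.6, 68.7 and 73.3 in the vehicle-treated tumors and 75.8, 55.8 and 56.2 in the WCE-treated tumors. WNT7A accounted for 56.5% to 71.3% of this sum. The share of WNT7B was 23.6% and 23.1% in WCE replicates 2 and 3 and 12.5% to 15.5% in the other tumors.

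**Figure D2:**
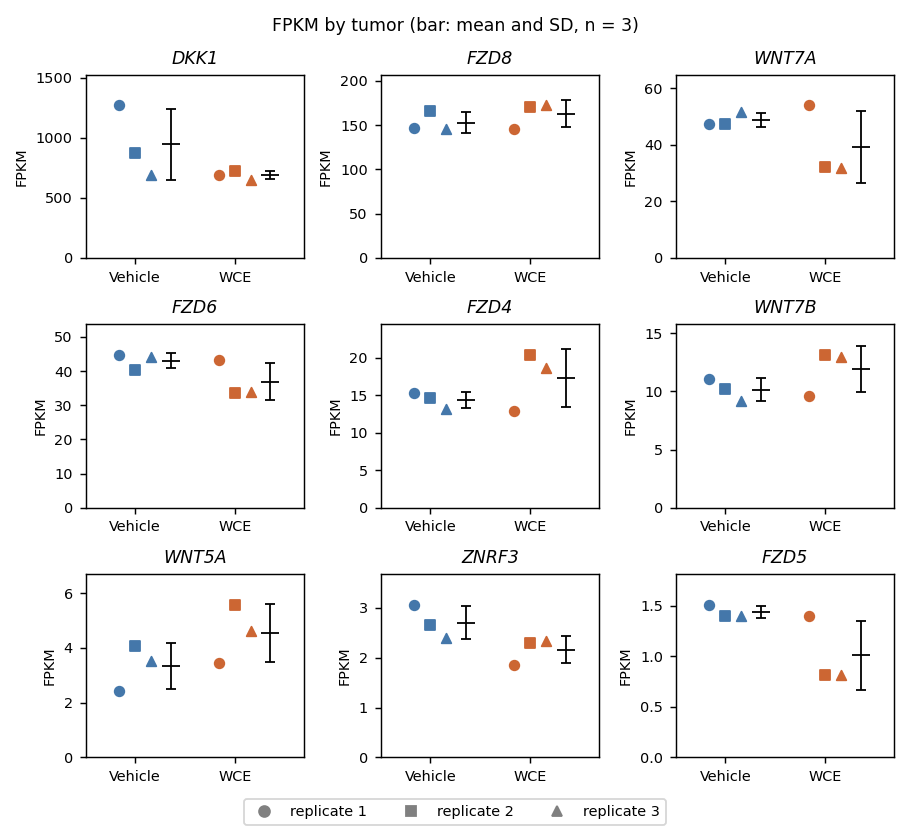
FPKM by tumor for 9 genes, with an axis from 0 in each panel; points are tumors, marker shape gives the replicate, and bars give the mean and SD (n = 3). For WNT7A, FZD6, FZD4, WNT7B and FZD5, WCE replicate 1 lies with the vehicle-treated tumors, and only ZNRF3 and FZD5 have groups that do not overlap.

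Among the receptors, FZD8 was the most abundant and differed little between groups. It is an intronless gene listed at chr10:35927177-35930362. Its level was 146, 166 and 146 FPKM under vehicle and 145, 170 and 173 FPKM under WCE. The log2 fold change of 0.09 had a 95% confidence interval from −0.17 to 0.35 by limma. FZD8 made up 66.7% to 72.6% of the summed frizzled FPKM, which was between 212 and 238 in the 6 tumors.

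FZD6, a frizzled receptor known for planar cell polarity, was next in level. It measured 44.7, 40.4 and 44.04 FPKM under vehicle and 43.1, 33.7 and 34.0 FPKM under WCE, with WCE replicates 2 and 3 the lowest of the 6. The log2 fold change was −0.22 with all tumors (SE 0.12, limma unadjusted p = 0.0998) and −0.32 in the comparison of 2 tumors with 2 (SE 0.11, limma unadjusted p = 0.0278). FZD4, which is also the receptor for norrin in blood vessel growth, showed the opposite order. It measured 15.3, 14.6 and 13.2 FPKM under vehicle and 12.9, 20.4 and 18.6 FPKM under WCE. Its log2 fold change was 0.23 with all tumors (SE 0.17, limma unadjusted p = 0.206) and 0.36 in the comparison of 2 tumors with 2 (SE 0.11, limma unadjusted p = 0.0218). FZD4 is also expressed by endothelial cells, and the summed FPKM of 7 endothelial marker genes was 1.25 to 3.43 in vehicle-treated and 3.21 to 7.63 in WCE-treated tumors. In WCE replicate 3, which had the highest sum, KDR alone was at 5.12 FPKM and PECAM1 at 2.37 FPKM. In WCE replicate 2, where FZD4 was highest, the sum was 3.78 FPKM, with KDR at 1.59 FPKM and PECAM1 at 2.05 FPKM. PECAM1 was at 0.860 to 2.95 FPKM over the 6 tumors, whereas CDH5, VWF, TEK and CLDN5 were under 0.1 FPKM and EMCN was at 0 in every tumor. The part of host vessels in the FZD4 values was not tested.

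FZD5, a receptor of the β-catenin branch, measured 1.51, 1.40 and 1.40 FPKM under vehicle and 1.40, 0.814 and 0.811 FPKM under WCE. All WCE-treated tumors were lower than all vehicle-treated tumors, but the margin was 1.3997 FPKM in vehicle replicate 2 to 1.3990 FPKM in WCE replicate 1, and with median-ratio or upper-quartile scaling the groups overlapped. The log2 fold change was −0.29 (SE 0.15, limma unadjusted p = 0.0926), and −0.44 in the comparison of 2 tumors with 2 (SE 0.14, limma unadjusted p = 0.0244). FZD2 (4.28 to 5.66 FPKM), FZD1 (2.28 to 3.24 FPKM), FZD7 (1.04 to 1.84 FPKM) and FZD3 (1.16 to 1.57 FPKM) overlapped between the groups. The locus of FZD3 is shared by 2 entries. FZD1, FZD2 and FZD7 are close paralogs. Their reads may therefore be uncertain in the same way as those of WNT7A and WNT7B. For FZD2 the log2 fold change was −0.01 with a 95% confidence interval from −0.30 to 0.27 by limma.

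Both co-receptors were present in every tumor. LRP5 measured 19.4, 12.8 and 14.98 FPKM under vehicle and 15.7, 15.2 and 16.1 FPKM under WCE, with a log2 fold change of 0.01 and a 95% confidence interval from −0.33 to 0.35 by limma. LRP6 was lower in level, at 3.49, 3.88 and 4.64 FPKM under vehicle and 4.59, 4.83 and 4.41 FPKM under WCE. Its log2 fold change was 0.17 with an SE of 0.12 (limma unadjusted p = 0.197), and the groups overlapped through vehicle replicate 3.

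AXIN2 and RNF43 are induced by β-catenin in many tissues and act as feedback inhibitors, and their means were nearly equal between the groups. AXIN2 measured 4.05, 2.20 and 2.79 FPKM under vehicle and 3.48, 1.99 and 3.46 FPKM under WCE. Its log2 fold change of −0.01 had a 95% confidence interval from −0.53 to 0.50 by limma, which leaves room for changes of up to that size in either direction. RNF43 was between 2.51 and 3.54 FPKM, with a log2 fold change of −0.01 and an interval from −0.31 to 0.29. Its listed locus is shared by 6 entries of the table, whose reads may overlap.

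ZNRF3, the relative of RNF43, was the other gene with separate groups. It measured 3.07, 2.66 and 2.39 FPKM under vehicle and 1.85, 2.30 and 2.33 FPKM under WCE. The gap between the groups, from 2.33 to 2.39 FPKM, was small against the spread within them. On the log2 scale the fold change was −0.23 (SE 0.13, limma unadjusted p = 0.116). LGR5, a receptor for R-spondins and a stem cell marker of the gut, measured 1.05, 1.04 and 1.02 FPKM under vehicle. Under WCE it measured 0.614, 1.78 and 1.26 FPKM, on both sides of the vehicle-treated tumors. For both genes the lowest WCE value was in WCE replicate 1. Its log2(FPKM + 1) minus that of the nearly identical vehicle replicate 3 was −0.33 for LGR5 and −0.25 for ZNRF3.

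**Figure D3:**
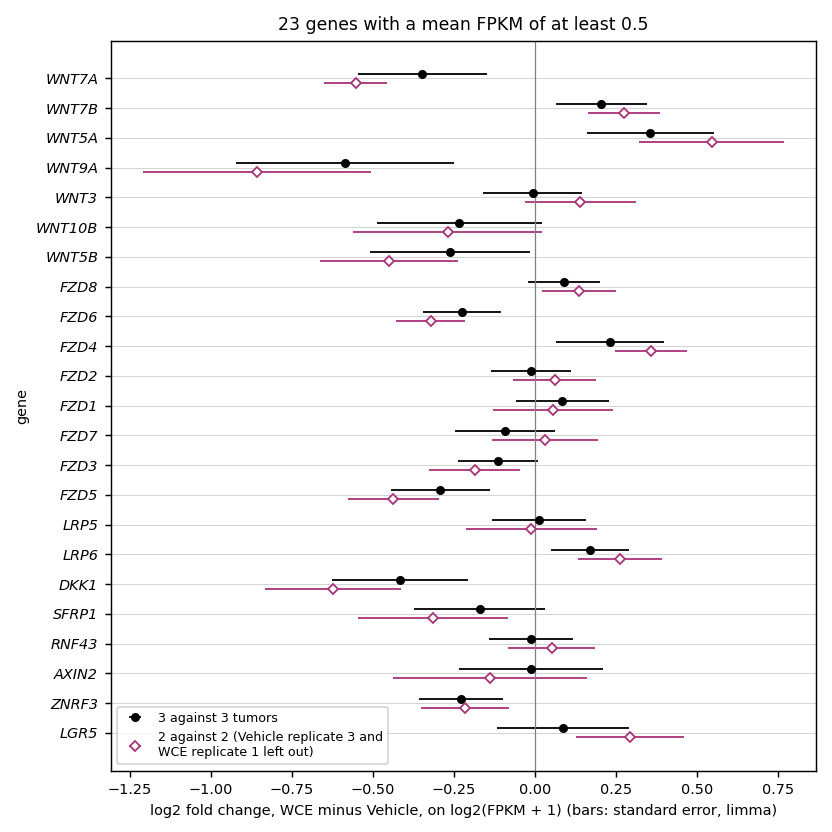
Log2 fold change (WCE minus vehicle, on log2(FPKM + 1)) with its standard error by limma for the 23 tested genes, from 3 against 3 tumors (filled circles) and from 2 against 2 with the nearly identical libraries left out (open diamonds). WNT7A, FZD6, FZD5 and DKK1 lie to the left and FZD4, WNT7B and WNT5A to the right in both comparisons.

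The remaining 21 genes had means under 0.5 FPKM and were not tested. Those with means between 0.1 and 0.5 FPKM were WNT10A, WNT11, WNT4, WNT2B, DKK3, FZD9 and WNT2. WNT10A measured 0.618, 0.531 and 0.548 FPKM under vehicle and 0.842, 0.124 and 0.184 FPKM under WCE. As in WNT5B and WNT7A, WCE replicate 1 was highest and WCE replicates 2 and 3 were lowest, while the order of the other tumors differed. Multiplied by the relative depth of the tumor, the values of 8 of 10 low genes with 1 listed transcription start and values above 0 in more than 1 tumor (not WNT10A and WNT4) were whole multiples of a smallest common step, within 0.011 of a step. Such steps arise when each stands for 1 read. FZD9 had 8, 4 and 7 steps in the vehicle-treated tumors and 2, 10 and 16 steps in the WCE-treated tumors, where the 2 steps fell in the tumor of 25.0% depth. WNT2 had 14, 4 and 7 steps with vehicle and 2, 0 and 10 with WCE. WNT3A, the ligand most used to activate β-catenin in culture, had 1, 2 and 7 steps with vehicle and 3, 5 and 0 with WCE.

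WNT8A, WNT6, WNT9B and SFRP5 were each listed above 0 in 1 vehicle-treated tumor only, so that no step could be found. SFRP4 had 1 step in vehicle replicate 3 and 1 in WCE replicate 2, and WNT8B had 2 steps in vehicle replicate 2 and 1 in WCE replicate 2. For genes at or near 0 no difference between groups was detectable at this depth. Intervals from these steps were not computed because a step is read from the values and not from deposited counts.

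**Figure D4:**
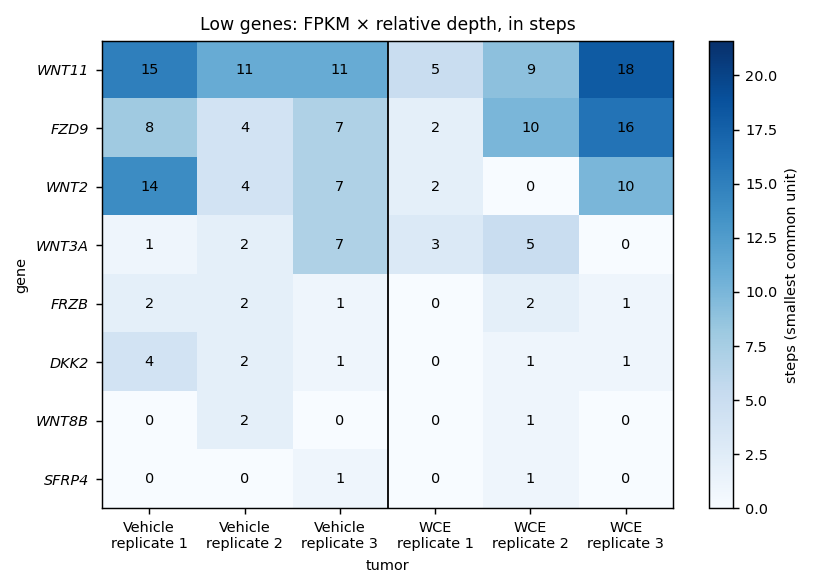
Number of steps (FPKM times relative depth, divided by the smallest common step of the gene) for 8 low genes in each of the 6 tumors; the vertical line separates vehicle-treated from WCE-treated tumors. WNT11 reaches 18 steps, and WNT8B and SFRP4 are at 0 in 4 of the 6 tumors.

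Other genes of the pathway were read from lists of secretion, extracellular, receptor, polarity, cytoplasmic, nuclear and target genes, of which 54 were tested. By limma, 0 of the 54 had an unadjusted p under 0.05 with higher and 2 with lower levels in WCE-treated tumors, which is 3.70% against 7.1% of all entries, and 0 passed the adjustment. They were SOSTDC1 and KREMEN2, whereas KREMEN1 had a log2 fold change of 0.077 (limma unadjusted p = 0.595). Groups did not overlap in 7 of the 54 genes, SOSTDC1 and KREMEN2 among them, against 12.8% of all entries tested. SOSTDC1, a secreted antagonist that binds LRP6, measured 1.83, 1.83 and 1.32 FPKM under vehicle and 1.10, 0.486 and 0.723 FPKM under WCE. The groups did not overlap, and its log2 fold change was −0.60 (SE 0.17, limma unadjusted p = 0.00893, adjusted p = 0.623). KREMEN2, a co-receptor through which DKK1 removes LRP6 from the membrane, measured 0.999, 0.927 and 0.957 FPKM under vehicle and 0.620, 0.395 and 0.457 FPKM under WCE, again without overlap. Its log2 fold change was −0.40 (SE 0.13, limma unadjusted p = 0.0173, adjusted p = 0.623).

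Levels differed widely among these lists. Of the 18 cytoplasmic genes 0 had a mean under 0.5 FPKM, against 7 of 12 extracellular genes. CTNNB1, which encodes β-catenin, was between 91.7 and 108 FPKM, and WLS, which carries WNT ligands to the cell surface, between 29.8 and 39.8 FPKM. Means under 0.5 FPKM were found for LEF1 and PYGO1 among the nuclear genes and for NKD1, APCDD1 and SP5 among the target genes. The medians of the log2 fold changes were 0.13 for the 2 secretion genes, −0.25 for 5 extracellular genes, −0.15 for 5 other receptors, −0.0017 for 8 polarity genes, 0.088 for 18 cytoplasmic genes, 0.032 for 11 nuclear genes and −0.021 for 5 further target genes, beside −0.0063 over all entries tested. The 5 further target genes ran from −0.15 for NKD2 to 0.48 for TNFRSF19 (limma unadjusted p = 0.611 and 0.0555). In the comparison of 2 tumors with 2, 7 of the 54 genes had an unadjusted p under 0.05, against 18.4% of all entries. TNFRSF19 was among them, with a log2 fold change of 0.77 (limma unadjusted p = 0.0028, adjusted p = 0.174).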

How the data were processed

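RNA was sequenced from 6 PC-3 tumors, 3 per group, from strand-specific libraries of polyadenylated RNA. The authors deposited FPKM values in a table with 24000 gene entries and 6 columns of tumors. The submitters' processing notes name TopHat2 2.0.13, Cufflinks and the builds hg19 and mm10, with no role or order, and any scaling between tumors is not given in the sources used here. Read counts were not analysed here, so the depth is known only in relative terms and no counting intervals are given.

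Each column was assigned to its tumor through the labels, and 0 columns were left out. FPKM values were changed to log2(FPKM + 1), which understates changes of low genes, and 13287 entries with a mean of at least 0.5 FPKM were tested with limma 3.58.1 (R 4.3.3, mean-variance trend, two-sided, Benjamini-Hochberg adjustment over all entries, threshold 0.05). With 3 tumors against 3 an exact permutation test cannot give a p under 0.1. The fit was run on simulated data with independent libraries and with changes larger than those of the WNT pathway genes. That run therefore says nothing about the nearly identical libraries or about changes as small as these. Relative depth came from the commonest ratio of low values to vehicle replicate 3. Fold changes are given for the 12 most abundant genes and for those past an unadjusted p of 0.05 or with separate groups. Of the other pathway genes, those with an unadjusted p under 0.05 are named. The fold change of WNT9A and the other values named, CTNNB1 and WLS among them, were chosen after they were seen. The genes and lists were chosen with earlier results of these data known. AMER1 and TRABD2A were matched by older symbols. Promoters, from RefSeq, and figures were handled in Python 3.11.15 with pandas 2.3.3, numpy 2.4.6 and matplotlib 3.10.9. The alternatives were the pseudocount, filter, scaling, trend, weights, a replicate block and left-out tumors. The stainings, immunoblots and qRT-PCR of the study were not analysed here.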

Additional observations from a re-analysis of the deposited data

How the results depend on the processing

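The 15 genes with a fold change in the comparison of all 6 tumors were refitted in 16 other settings, WNT9A among them by a choice made after seeing the data. In 240 refits of single genes, 201 kept the direction and the side of an unadjusted p of 0.05, 21 passed to under 0.05 with the same direction, and 18 turned the direction, all of them in LRP5, FZD2, RNF43 and AXIN2. With both nearly identical libraries left out LRP5 was −0.013, FZD2 0.061 and RNF43 0.051. With upper-quartile scaling FZD2 was 0.0040, RNF43 0.0014 and AXIN2 0.0022, and with limma array weights 0.11, 0.095 and 0.18. Leaving out 1 tumor at a time gave log2 fold changes from −0.12 to 0.16 for LRP5, from −0.084 to 0.084 for FZD2, from −0.10 to 0.083 for RNF43 from −0.16 to 0.18 for AXIN2 and from −0.90 to −0.25 for WNT9A. The cause was not tested.

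The number of the WNT pathway genes with an unadjusted p under 0.05 was 0 with all tumors (7.1% of all entries). It was 7 with limma array weights (24.1%), 2 with a replicate block (WNT5A and WNT9A, 7.89%) and 5 with both libraries left out (18.4%). Over the fits that left out 1 tumor it was 0 to 8, with 8 without WCE replicate 1 (15.3%) and 1 (DKK1) without vehicle replicate 3 (13.3%). The number with separate groups was 2, and 1 (ZNRF3) with median-ratio or upper-quartile scaling, 14 with both libraries left out and 2 to 12 over the fits that left out 1 tumor, with 12 without WCE replicate 1 (37.8% of all entries), 5 when vehicle replicate 1 (20.4%) or 3 (33%) was left out and 4 when vehicle replicate 2 was (18.9%). Their median log2 fold change was 0.095 with limma array weights and −0.11 to −0.00085 over the fits that left out 1 tumor, where it was lowest without vehicle replicate 2. Of the other pathway genes, 5 of 69 had an unadjusted p under 0.05 without a filter (4.38% of all entries). With a mean of at least 1 FPKM it was 1 of 50 (7.34%). Of 54 genes it was 12 with limma array weights (24.1%), 4 with a replicate block (7.89%) and 7 with both libraries left out (18.4%). Over the fits that left out 1 tumor it was 1 to 6, with 6 without WCE replicate 1 (15.3%) and 1 without WCE replicate 2 (1.77%). Over all entries, the adjusted count was 0 without a filter, 5 with both libraries left out and 1 to 7 over the fits that left out 1 tumor, and the unadjusted count was 3201 with limma array weights, 2449 with both libraries left out and 219 to 2033 over the fits that left out 1 tumor (2033 without WCE replicate 1). The cause was not tested.

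The replicate block gave 1 adjusted and 1049 unadjusted calls over all entries. The deviations of tumors with the same number had correlations of −0.24, 0.16 and −0.093, and those of tumors with unlike numbers −0.33 to 0.36. Even the nearly identical libraries reached only 0.36, so this check cannot decide whether the numbers pair the tumors. Genes under 0.5 FPKM rest on few reads, above all in WCE replicate 1 with 25.0% of the depth of vehicle replicate 3.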
